A study of Mus musculus with 4 samples.

Results

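Mature miRNAs of the miR-23, miR-24 and miR-27 families were followed in mouse plasma: miR-23a-3p (MIMAT0000532), miR-23b-3p (MIMAT0000125), miR-24-3p (MIMAT0000219), miR-27a-3p (MIMAT0000537) and miR-27b-3p (MIMAT0000126). They were taken by identifier, not by their signals, and are 5 of the 1265 probes in the deposited table. All 5 had a signal on all 4 arrays, as had 362 probes altogether. Cell-free RNA (cf-RNA) was taken from the plasma of 2 young mice, aged 6 to 7 weeks, and 2 aged mice, aged 23 to 24 months. All 4 were C57BL6/J males, for which the labels name no treatment or genetic change, and each RNA was labelled with the dye Hy5 and hybridised to its own 3D-Gene chip. A 3D-Gene chip is a 1-colour array with a probe for each mature miRNA, and its value is a signal intensity.

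These miRNAs are made from a pair of related clusters, in each of which a miR-23, a miR-27 and a miR-24 hairpin lie close together and are cut from one primary transcript. Each mature strand guides the silencing complex to mRNAs that pair with its seed, bases 2 to 8 from the 5′ end. The clusters are known for their activity in endothelial cells, muscle, fat and blood cells. In mouse muscle, miR-23a represses the ubiquitin ligases Atrogin1 and MuRF1, and miR-27b represses Pax3 in muscle stem cells. The miR-27 pair represses the fat cell regulator PPARγ, and miR-24 represses the histone variant H2AX in human blood cells. In human plasma, miR-23a-3p is also used as a reference for haemolysis, which changes it little compared with miR-451a of red cells.

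The mature sequences are shown because seed and near-identity set how the probes can be compared. They are from RefSeq (GRCm38.p6), with the seed in capitals, and 4 of the 5 names were matched there, all but that of miR-23b-3p.
miR-23a-3p: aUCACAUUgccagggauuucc
miR-24-3p: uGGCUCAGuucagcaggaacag
miR-27a-3p: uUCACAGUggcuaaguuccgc
miR-27b-3p: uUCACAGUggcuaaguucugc
miR-27a-3p and miR-27b-3p shared their seed and 20 of 21 bases, and differed by C19U, counted from the 5′ end with the miR-27a base first. Among the 1679 mature mouse miRNAs of that table, which is not complete, no other had the miR-27 seed at bases 2 to 8. The seed of miR-23a-3p shares its first 5 letters, UCACA, with that of miR-27. The seed of miR-24-3p was shared with 4 others, miR-5124b, miR-6369, miR-6410 and miR-6413. How far the chip separates the 27a and 27b strands was not tested.

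In GRCm38.p6, the Mir23a, Mir27a and Mir24-2 hairpins lie in that order within 404 bases of the forward strand, at chr8:84208518-84208921. The protein-coding gene nearest to them is Zswim4, 2021 bases away. The Mir23b, Mir27b and Mir24-1 hairpins lie in the same order within 792 bases, at chr13:63300484-63301275, inside the bounds of the aminopeptidase gene Aopep. Whether they are in its exons or introns was not examined. The mature strands lie at chr8:84208563-84208583 for miR-23a-3p, chr8:84208727-84208747 for miR-27a-3p and chr13:63300760-63300780 for miR-27b-3p.

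miR-24-3p is the exception, since both clusters give it. Its hairpins are shown with the mature strand in capitals.
Mir24-2: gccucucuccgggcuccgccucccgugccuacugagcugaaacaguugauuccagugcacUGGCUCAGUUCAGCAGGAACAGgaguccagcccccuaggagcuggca
Mir24-1: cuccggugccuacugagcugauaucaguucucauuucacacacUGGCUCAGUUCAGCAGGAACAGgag
The same 22 bases stand at chr8:84208875-84208896 and at chr13:63301251-63301272, in hairpins of 107 and 68 bases. The signal of miR-24-3p therefore sums over the clusters, whereas the 23a and 27a strands come from chromosome 8 and the 27b strand from chromosome 13.

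The arrays differed in breadth. They listed 439 to 620 miRNAs, fewest in young mouse 2, and the authors had scaled each to a median of 25 over its listed values. Over the 362 shared miRNAs, the median signal was 67.9 and 35.15 in young mice 1 and 2, and 62.1 and 55.95 in aged mice 1 and 2. Young mouse 2 was thus low across the shared miRNAs. The values below are therefore given on the deposited scale and after the medians of the shared miRNAs were set equal.

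miR-23a-3p had signals of 1261.7 and 683.6 in young mice 1 and 2, and of 888.9 and 1161.8 in aged mice 1 and 2. Its mean was 973 ± 409 in young and 1025 ± 193 in aged mice (SD, n = 2 each), a ratio of 1.05. The aged mice lay between the young ones.

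miR-23b-3p, its partner from the other cluster, gave 1042.6 and 583.1 in young mice and 729.9 and 852.2 in aged mice. Its group means were 813 ± 325 and 791 ± 86.5 (SD, n = 2 each), and the ratio of aged to young was 0.973. Here too both aged mice lay inside the young range.

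miR-24-3p had signals of 497.1 and 318.9 in young mice and of 346.2 and 404.7 in aged mice. Its means were 408 ± 126 and 375 ± 41.4 (SD, n = 2 each), a ratio of 0.920. The ages again overlapped.

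miR-27a-3p gave 390.1 and 227.7 in young mice and 257.8 and 345.1 in aged mice. Its means were 309 ± 115 and 301 ± 61.7 (SD, n = 2 each), with a ratio of 0.976. The order of the mice was that of the other members.

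miR-27b-3p gave 279.4 and 140.6 in young mice and 145 and 174.8 in aged mice. Its means were 210.0 ± 98.1 and 159.9 ± 21.1 (SD, n = 2 each), and its ratio of 0.761 was the lowest of the 5. The aged mice were close to young mouse 2.

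For each of the 5 miRNAs the order was young mouse 1, aged mouse 2, aged mouse 1 and young mouse 2, from high to low. The young mice differed from each other by 1.56-fold (miR-24-3p) to 1.99-fold (miR-27b-3p), and the aged mice by 1.17-fold to 1.34-fold. Each difference between the age means was smaller than the SD of the young mice. In plasma, release by fewer cells and release of less RNA per cell cannot be told apart.

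**Figure D1:**
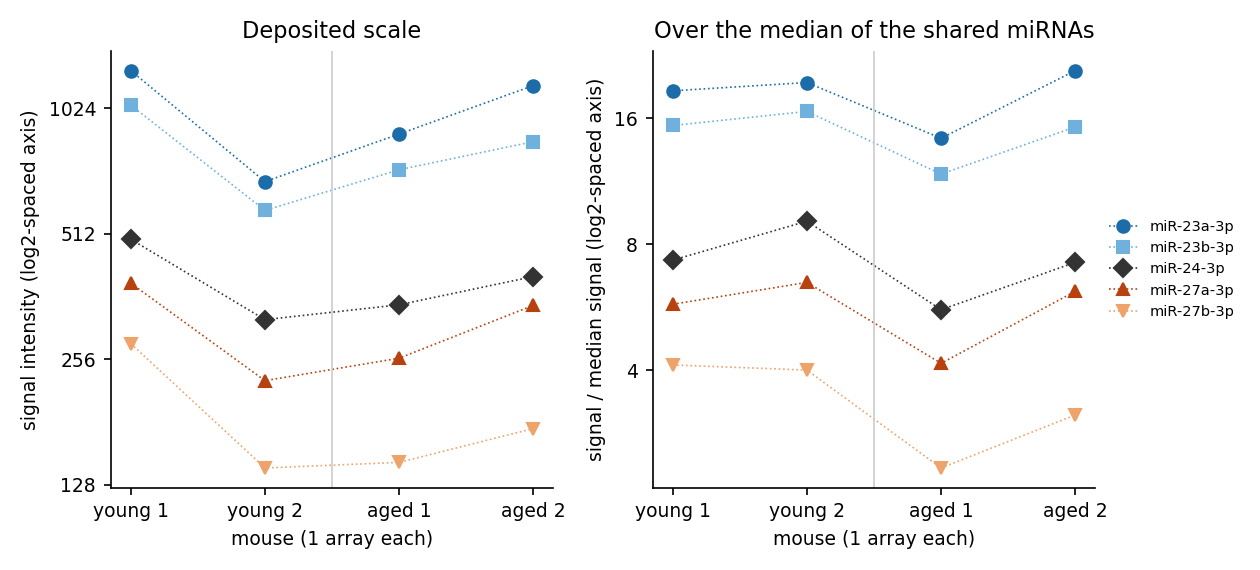
Signal of the 5 miRNAs in each mouse, on log2-spaced axes, as deposited (left) and divided by the median signal of the 362 shared miRNAs on that array (right). Each point is 1 array. On the left young mouse 1 is highest and young mouse 2 lowest for all 5, and on the right aged mouse 1 is lowest for all 5.

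The comparison between ages asked whether these miRNAs took part in the age difference of plasma cf-miRNAs. On the deposited scale, 0 of the 5 passed the test (limma, adjusted p below 0.05), in either direction, and 0 of 5 had an unadjusted p below 0.05. Among all 362 miRNAs, 0.276% were called lower and 0% higher in aged mice. Without young mouse 1, 1 of the 362 was called lower and 49 higher, with 0 of the 5 members among them. The one-way test named in the methods called 0 of the 362 lower and 0 higher, so its 0 of the 5 is nothing particular to the members.

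The log2 difference, aged minus young, was 0.13 for miR-23a-3p (95% interval -1.05 to 1.31, limma adjusted p = 0.92). It was 0.02 for miR-23b-3p (-1.16 to 1.19, adjusted p = 0.996) and -0.09 for miR-24-3p (-1.27 to 1.09, adjusted p = 0.95). miR-27a-3p had a difference of 0.0011 (-1.18 to 1.18, adjusted p = 0.998). miR-27b-3p had the most negative value, -0.32 (-1.49 to 0.86, adjusted p = 0.88). The intervals of the fold ran from 0.484 to 2.47 for miR-23a-3p and from 0.356 to 1.82 for miR-27b-3p, so these arrays leave a wide range of differences undetected. The standard error was 0.60 for each, since 1 common spread was estimated for all miRNAs.

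On this scale the median difference over all miRNAs was 0.31, with quartiles of -0.19 and 0.65, against 0.0011 for the 5 members. All 5 lay below the median of all miRNAs when all 4 arrays were used. For 0 of the 5 did both aged mice lie below the young pair (9.94% of all miRNAs), and for 0 of the 5 above it (19.9% of all miRNAs).

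Once the medians of the shared miRNAs were set equal, the picture changed from overlap to a small downward offset. Divided by the median signal of its array, miR-27b-3p was 4.11 and 4.0 in young mice and 2.33 and 3.12 in aged mice, with means of 4.06 ± 0.0812 and 2.73 ± 0.558 (SD, n = 2 each). The ages did not overlap. The same ratio for miR-24-3p was 7.32 and 9.07 in young mice and 5.57 and 7.23 in aged mice. For this miRNA the ages were separate by a narrow margin, between young mouse 1 and aged mouse 2.

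For miR-23b-3p the signal over the array median was 15.4 and 16.6 in young mice and 11.8 and 15.2 in aged mice, with a similarly narrow gap. For miR-23a-3p it was 18.6 and 19.4 in young mice and 14.3 and 20.8 in aged mice. For miR-27a-3p it was 5.75 and 6.48 in young mice and 4.15 and 6.17 in aged mice. The ages thus overlapped for 23a and 27a, and did not for the other 3. Of these, miR-24-3p comes from both clusters, and a difference between the clusters was not tested. Both aged signals lay under the young pair for 22.7% of all miRNAs, against 3 of the 5 members, and over it for 21.8%, against 0 of the 5.

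With equal medians, all 5 log2 differences were negative and 0 of the 5 passed the test. They ran from -0.14 for miR-23a-3p (95% interval -0.97 to 0.69, limma adjusted p = 0.95) to -0.59 for miR-27b-3p (-1.42 to 0.24, adjusted p = 0.54). The values were -0.25 for miR-23b-3p, -0.36 for miR-24-3p and -0.27 for miR-27a-3p. As folds these 5 differences were 0.907, 0.838, 0.779, 0.830 and 0.666 for miR-23a-3p, miR-23b-3p, miR-24-3p, miR-27a-3p and miR-27b-3p. The median was -0.27 for the members and 0.03 for all 362 miRNAs, of which 3.31% were called lower and 1.1% higher in aged mice. From the lowest difference upwards, the members ranked 67 (miR-27b-3p) to 135 (miR-23a-3p) of 362, below the middle but not among the extremes.

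**Figure D2:**
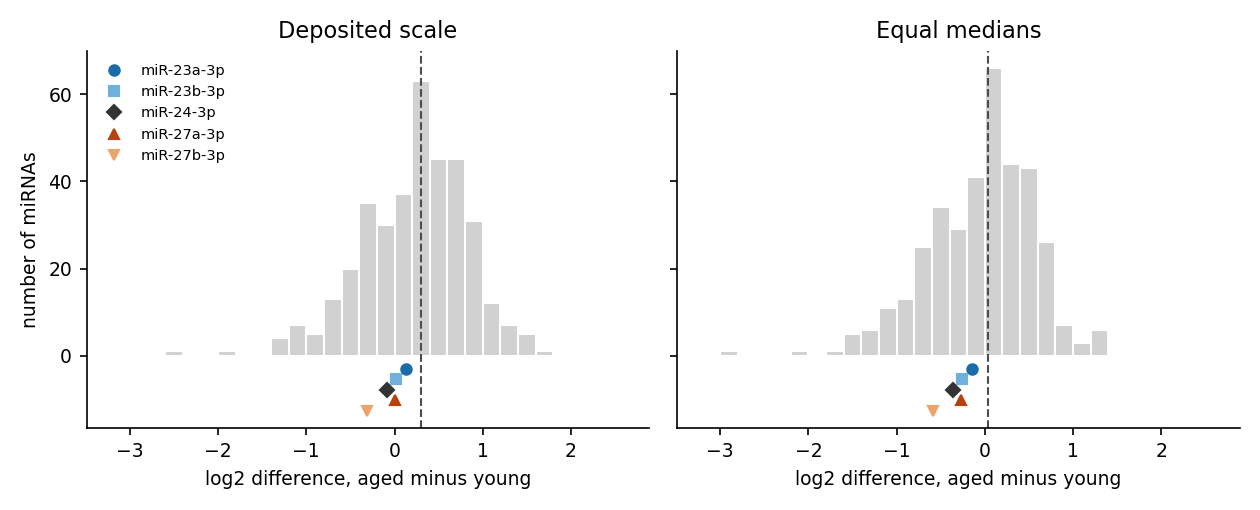
Log2 differences, aged minus young, of all 362 shared miRNAs (grey bars, number of miRNAs), with the 5 members marked beneath, on the deposited scale and with equal medians. The dashed line is the median of all miRNAs, 0.31 and 0.03, and all 5 members lie to its left in both panels. Equal medians move all miRNAs by the same amount, so the members' places are the same in both.

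The direction of a single member depended on the scaling. Quantile normalisation gave -0.32 for miR-23a-3p, -0.52 for miR-23b-3p, -0.31 for miR-24-3p, 0.02 for miR-27a-3p and -0.37 for miR-27b-3p. miR-24-3p and miR-27b-3p were negative under the deposited scale, equal medians, quantile normalisation and scaling on the brightest miRNAs, and the other 3 changed sign among these. All 5 were below the median of all miRNAs under each of the 4. Equal medians and scaling on the brightest move the differences of all miRNAs by the same amount. They therefore keep each member's place from the deposited scale, and only quantile normalisation could change it. No scaling brought a member past the threshold.

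**Figure D3:**
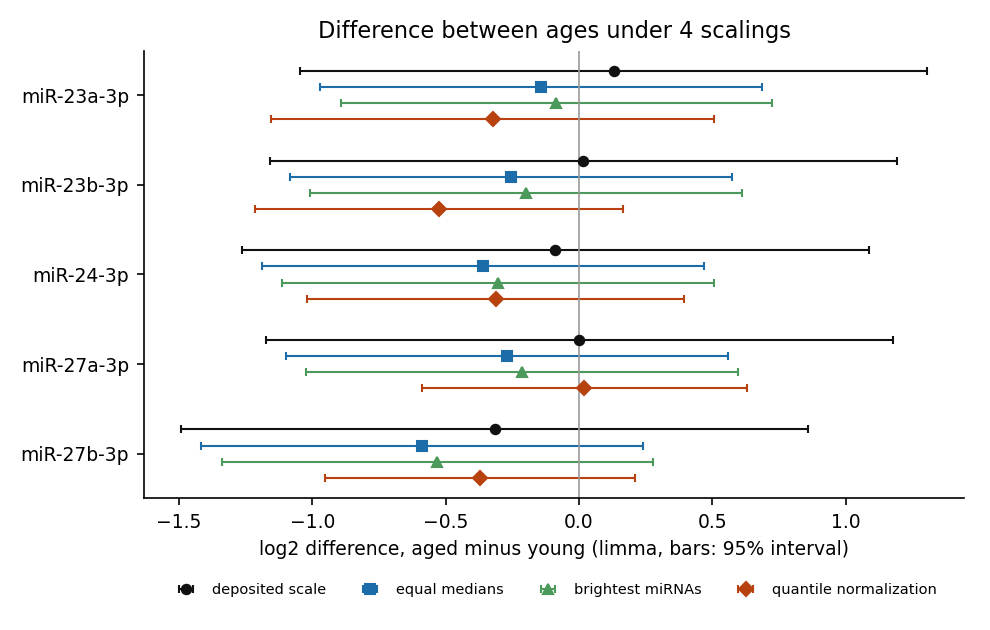
Log2 difference between ages, aged minus young, of each member under 4 scalings, with 95% intervals from limma. Every interval crosses 0, and miR-27b-3p has the most negative value under each scaling but quantile normalisation.

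Single arrays decided the direction on the deposited scale. Without young mouse 1 all 5 differences were positive, with a median of 0.39 against 0.73 for all miRNAs. Without young mouse 2 all 5 were negative, with a median of -0.40 against -0.14 for all miRNAs. Without aged mouse 1 the members' median was 0.13 against 0.28 for all miRNAs, and 4 of the 5 lay below the latter, with miR-23a-3p above it at 0.32. Without aged mouse 2 the members' median was -0.20 against 0.28 for all miRNAs.

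With equal medians, aged mouse 1 carried much of the offset. The mean log2 profile of the 5 members was 0.10 and 0.22 in young mice 1 and 2, -0.39 in aged mouse 1 and 0.07 in aged mouse 2, around a mean of 0. Without aged mouse 1, the members' median difference went from -0.27 to -0.07, with 0.13 for miR-23a-3p, 0.02 for miR-27a-3p and -0.38 for miR-27b-3p. The same 4 of the 5 as on the deposited scale then lay below the median of all miRNAs, since equal medians move all differences alike. Without aged mouse 2 the members' median was -0.55. Without young mouse 1 it was -0.36 and without young mouse 2 it was -0.20. miR-27b-3p, miR-24-3p and miR-23b-3p stayed negative whichever array was left out. That adds nothing to their separate ages, since both aged signals lay under the young pair and no omission could change the sign.

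Ratios of members on one array do not change when the array is scaled by one factor, as with equal medians or the brightest miRNAs. Quantile normalisation can change them. The 5 ratios fixed for comparison were computed on the deposited scale. A ratio of signals is read only between mice, since the probes may differ in brightness. The ratio of miR-27a-3p to miR-27b-3p was 1.40 and 1.62 in young mice and 1.78 and 1.97 in aged mice. It was higher in both aged mice than in either young mouse, by 0.32 on the log2 scale or 1.25-fold (exact permutation test, two-sided p = 0.333, 0.417 after Benjamini-Hochberg adjustment over 5 ratios). With 2 mice per age, 0.333 is the smallest p this exact test can give, so no ratio could reach 0.05.

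The ratio of miR-23b-3p to miR-27b-3p, whose hairpins are neighbours on chromosome 13, was 3.73 and 4.15 in young mice and 5.03 and 4.88 in aged mice. The aged mice were again above the young, by 0.33 on the log2 scale or 1.26-fold (exact permutation p = 0.333, adjusted 0.417). On chromosome 8, the log2 ratio of miR-23a-3p to miR-27a-3p was 1.69 and 1.59 in young mice and 1.79 and 1.75 in aged mice, a smaller difference of 0.13 (exact permutation p = 0.333, adjusted 0.417). Within both clusters, then, miR-23 was higher relative to miR-27 in both aged mice on the deposited scale. After quantile normalisation this direction reversed in the means of both clusters. The log2 differences were then -0.52 for miR-23b-3p against -0.37 for miR-27b-3p, and -0.32 for miR-23a-3p against 0.02 for miR-27a-3p. The mean direction of 27a to 27b and of 23a to 23b was kept.

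Between the miR-23 partners, the log2 ratio of 23a to 23b was 0.28 and 0.23 in young mice and 0.28 and 0.45 in aged mice, a difference of 0.11 (exact permutation p = 0.333, adjusted 0.417). The ages were separate only just, between 0.275 and 0.284. The log2 ratio of miR-24-3p to the mean of the other 4 was -0.31 and -0.08 in young mice and -0.19 and -0.29 in aged mice, and the ages overlapped (difference -0.05, exact permutation p = 1). Leaving out each mouse in turn left the miR-27a to miR-27b difference between 0.21 and 0.42, and the miR-23b to miR-27b difference between 0.26 and 0.41. The difference of miR-23a to miR-23b ranged from 0.03 without aged mouse 2 to 0.19 without aged mouse 1. These differences could not change sign, since the ages did not overlap for any of these ratios.

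Separation of the ages was common among ratios on these arrays. Of the 10 pairs that can be formed from the 5 members, 8 had ages that did not overlap, against 48.4% of all 65341 pairs of shared miRNAs and 53.5% of the 16290 pairs among the 181 brighter miRNAs by mean signal. The miR-27a to miR-27b difference was also not large beside them, since 69.3% of all pairs differed by as much or more between the ages.

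**Figure D4:**
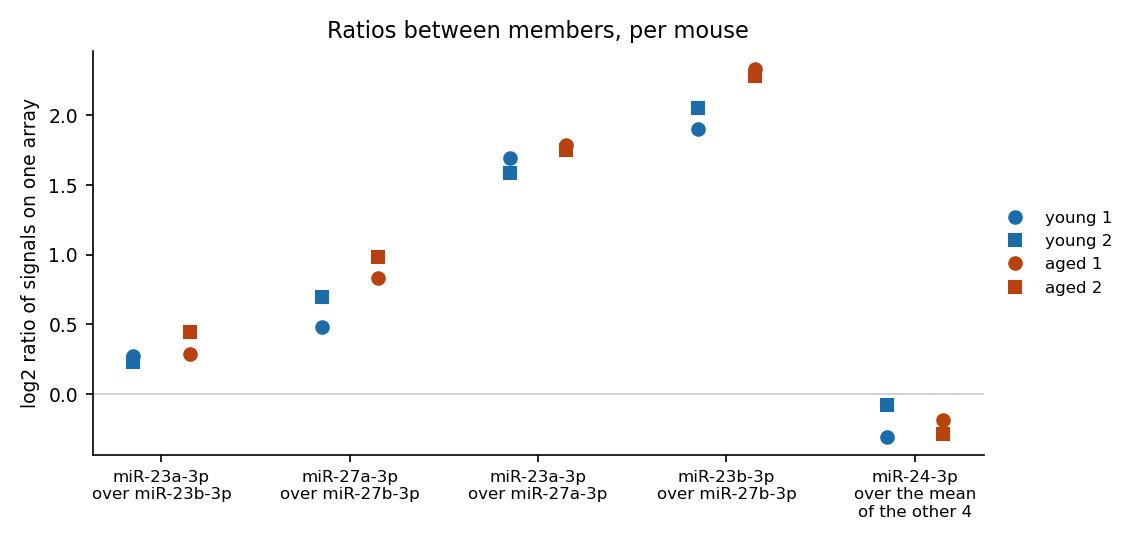
Log2 ratio of signals on one array for the 5 ratios, with 1 point per mouse, young in blue and aged in orange. The aged points lie above the young ones for the first 4 ratios and overlap them for miR-24-3p over the mean of the other 4.

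Each ratio between members varied less over the 4 arrays than the median pair of miRNAs. The log2 ratio between a pair of members had an SD over the 4 arrays of 0.085 to 0.27, with a median of 0.14, whereas the median over all pairs of shared miRNAs was 0.55. An SD at or below that of the closest member pair was found in 0.528% of all pairs, and one at or below that of the member pair farthest apart in 11.7% (0.669% and 13.6% of pairs among the brighter miRNAs). The 10 pairs share their members and are no independent set. The age difference of these ratios had a median size of 0.17 on the log2 scale for the members and 0.55 for all pairs. The SD was 0.21 for the near-identical miR-27a-3p and miR-27b-3p, and 0.095 for miR-23a-3p and miR-23b-3p. For miR-23b-3p and miR-27a-3p, of different families, it was 0.085, the lowest of the 10. The part of shared binding in the likeness of the members was not tested.

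Each member also varied less over the 4 mice than the median miRNA on the deposited scale, with equal medians and after quantile normalisation, though its place among the others depended on the scaling. On the deposited scale the SD of log2 signal was 0.40 for miR-23a-3p, 0.35 for miR-23b-3p, 0.28 for miR-24-3p, 0.36 for miR-27a-3p and 0.46 for miR-27b-3p, against a median of 0.53 over all miRNAs. From the smallest SD upwards, miR-24-3p ranked 35 and miR-27b-3p 136 of 362. With equal medians the SD was 0.22 to 0.38 and the median of all miRNAs 0.39. After quantile normalisation, miR-27a-3p had an SD of 0.12, rank 25, and miR-23b-3p one of 0.36, rank 179.

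Likeness to the members' mean pattern was measured as the root mean square difference of centred log2 signal over the 4 arrays. It was 0.045 for miR-23b-3p, 0.052 for miR-27a-3p, 0.074 for miR-24-3p, 0.097 for miR-23a-3p and 0.15 for miR-27b-3p, which stood farthest from the mean. Each member is itself part of that mean, which makes its own difference smaller in advance. The members' values can therefore be compared with each other, but not with those of miRNAs outside the mean. The named miRNA nearest to the pattern was miR-125b-5p at 0.50, which was only 263rd of the 357 other miRNAs. It was followed by miR-199-3p at 0.51, let-7e-5p at 0.51, miR-26a-5p at 0.60 and miR-721 at 0.60. Names were known only for miRNAs that the study had listed for their extreme ratios on these arrays, so none with a pattern close to the members could be named. The identifiers nearest to the pattern, MIMAT0000653 (0.066) and MIMAT0004888 (0.073), had signals of only 10 to 16.8 and 10.5 to 16.6, near the lowest listed values of 7.0 to 9.5.

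Markers of the cells that plasma RNA can come from moved beside the members. Of 23 markers in 6 lists, 7 could be named, and all 7 are among those the study chose on these arrays. The defining red cell marker miR-451a, endothelial miR-126a and liver miR-122 were not among them. Relative to the mean log2 signal of the 5 members on the same array, miR-486-3p of red cells was higher in aged mice by 1.37, and myeloid miR-223-3p by 1.30. In the striated muscle list, 3 of 4 were named, with differences of -1.77 for miR-1a-3p, -1.23 for miR-133b-3p and -1.22 for miR-133a-3p. In the smooth muscle and fibroblast list, 2 of 4 were named, with differences of -0.99 for miR-199-3p and -1.26 for miR-214-3p. All 7 had been picked for their age ratios on the same arrays, so nothing is read from the size of these differences. The part of these cell sources in the members' signals was not tested.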

How the data were processed

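Plasma RNA of 2 young and 2 aged mice was hybridised to 3D-Gene chips, 1 array per mouse. The deposited values are linear signal intensities, which the authors brought to a median of 25 over the miRNAs listed on an array. How background was removed, how the scaling was done and when a miRNA was listed were not given in the sources used here. A further 8 columns of intensities, headed by sample numbers that name no mouse, were not used.

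Log2 intensities without a pseudocount, of the 362 miRNAs listed on all 4 arrays, were compared with limma 3.58.1 in R 4.3.3 (lmFit and eBayes, no block, two-sided). P-values were adjusted by Benjamini-Hochberg over the 362, with a threshold of 0.05. This fit was first tested on simulated data. Ratios between members were compared with exact permutation tests over all splits of the 4 mice into groups of 2. Their p-values were adjusted by Benjamini-Hochberg with scipy 1.17.1. Other steps used Python 3.11.15, numpy 2.4.6, pandas 2.3.3 and matplotlib 3.10.9.

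Alternatives were equal medians of the shared miRNAs, quantile normalisation, scaling on each array's 439 brightest miRNAs, the 181 brighter miRNAs by mean signal, blanks set to the lowest value, a pseudocount of 16, a trended and robust variance, a replicate block, the one-way test of the methods, and each array left out. With 2 mice per age, the number of arrays limits the precision. The paper lists same-numbered young and aged arrays under the same experiment label, which the main fit did not include as a block. The sources used here do not say what else the mice shared, so p-values measure only the spread between these samples.

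Names were those of the 5 members and of 24 miRNAs that the study lists, each found by its 4 signals. The other identifiers are not paired with names in the tables used here, so the other arms of the hairpins and the miRNAs with a shared seed have no values. The named miRNAs were by rule the members, those arms and seed relatives, and the 5 named miRNAs nearest in pattern. The members, the lists and the rule were chosen with earlier results of these data known. The markers were 7 miRNAs of red cells, 2 of endothelium, 4 of leukocytes and platelets, 2 of liver, 4 of striated muscle and 4 of smooth muscle and fibroblasts.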

Additional observations from a re-analysis of the deposited data

How the results depend on the processing

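No member passed the threshold under any alternative (lowest adjusted p in limma with all arrays 0.256), so what follows concerns the direction of differences that the test did not call. With equal medians, alone, with a replicate block or with a trended and robust variance, 3 differences turned negative: -0.141 (miR-23a-3p), -0.254 (miR-23b-3p) and -0.27 (miR-27a-3p). Scaling on the brightest miRNAs gave -0.0846, -0.198 and -0.213 for the same 3, quantile normalisation -0.324 and -0.525 for the first 2, and a pseudocount of 16 gave -0.00071 for miR-27a-3p. Equal medians and scaling on the brightest shift all miRNAs of an array by one factor. For the others the cause was not tested. The equal-median fits with a block, with a trended variance and without single arrays were chosen after seeing the data.

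With single arrays left out, the deposited scale gave -0.312 to 0.572 for miR-23a-3p, -0.403 to 0.436 for miR-23b-3p, -0.409 to 0.231 for miR-24-3p, -0.387 to 0.389 for miR-27a-3p, -0.811 to 0.179 for miR-27b-3p and -0.403 to 0.389 for the members' median. Equal medians gave -0.409 to 0.127, -0.441 to -0.0674, -0.548 to -0.172, -0.555 to 0.0158, -0.797 to -0.377 and -0.548 to -0.0674 in the same order. The ratio of miR-24-3p to the other 4 ranged from -0.163 to 0.0691. The other 4 ratios kept their direction in these fits, which did not include quantile normalisation. They could not do otherwise, since both aged mice lay above both young mice for each.

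Same-numbered arrays share an experiment label in the paper, and deviated together from the means of their ages (correlation 0.337 over 362 miRNAs). Joint hybridisation is not stated. The replicate block left the members' differences as they were (0.13, 0.0165, -0.0891, 0.00114 and -0.316 in the order above) and called no member (adjusted p = 0.837 for miR-27b-3p). With equal medians and the block the adjusted p of miR-27b-3p was 0.256. Over all miRNAs, 1 was called lower and 0 higher on the deposited scale and with the block, 12 and 4 with equal medians, 12 and 6 with scaling on the brightest, 17 and 7 with equal medians and the block, 14 and 5 with equal medians and a trended variance, 2 and 0 with blanks at the lowest value, and 0 and 0 with quantile normalisation, a trended variance on the deposited scale or the one-way test. Leaving out young mouse 1, young mouse 2, aged mouse 1 or aged mouse 2 gave 1 lower and 49 higher, 2 and 0, 0 and 0, and 0 and 0 on the deposited scale, and 8 and 1, 1 and 0, 0 and 0, and 0 and 0 with equal medians. The ratio of miR-451a to miR-23a-3p was not run, because no identifier could be given that name. Fits without 1 array take their spread from the other age alone, and the lone array is assumed to vary like it.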
